A study of Rattus norvegicus with 12 samples.

Results

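The 9 genes described here, Gpnmb, Csf1r, Ctss, Ctsd, Apoe, Cd68, Lgals3, Tyrobp and Aif1, are strongly transcribed in macrophages, and all 9 are represented on the Affymetrix RAE 230A array by probe sets that the platform annotation assigns to that gene alone. There were 11 such probe sets among the 15923 of the array, for 9 of 10411 named genes. Apoe and Aif1 had a pair of probe sets each and the others 1 each. Lung RNA of 12 male Wistar rats aged 12 weeks was hybridized, with 1 array per animal and no pooling. The 7 diabetic animals had been injected with streptozotocin, which kills the insulin-producing beta cells, at 8 weeks of age and were studied after 4 weeks of diabetes, and the 5 control animals had been injected with buffer at the same age. Both groups were studied after an overnight fast. Because streptozotocin is a systemic toxin and no untreated or insulin-treated group was included, an effect of the drug itself on lung cells cannot be told apart from that of diabetes. The tissue was whole lung, in which fewer cells of a type and less RNA per cell cannot be told apart.

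Macrophages of the alveoli and the lung interstitium take up and digest inhaled particles, surfactant and dead cells. They depend on colony stimulating factors, which act through receptors such as that encoded by Csf1r, and they carry a large lysosomal system. When macrophages load with lipid or debris, genes for lysosomal proteins and for Gpnmb, Lgals3 and Cd68 are often induced together. Several of the 9 genes are also active in other lung cells, Lgals3 and Ctsd in epithelium and Apoe in type I alveolar cells among them, so no single gene of the group counts macrophages.

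Promoters are shown for Gpnmb, Ctsd and Cd68, 3 of the genes whose highest signals fell in the same 2 animals. They are the 250 bases before the start site on the gene's own strand, from RefSeq on build GRCr8, at chr4:79340878-79341127 (plus strand), chr1:206968822-206969071 (minus strand) and chr10:54882442-54882691 (minus strand). Capitals mark 3 motifs searched on both strands, the palindromic E-box CACGTG and the M-box TCATGTG, both of the kind bound by the MiT family of lysosomal regulators, and GAGGAA, the core of sites for the myeloid factor PU.1.
Gpnmb: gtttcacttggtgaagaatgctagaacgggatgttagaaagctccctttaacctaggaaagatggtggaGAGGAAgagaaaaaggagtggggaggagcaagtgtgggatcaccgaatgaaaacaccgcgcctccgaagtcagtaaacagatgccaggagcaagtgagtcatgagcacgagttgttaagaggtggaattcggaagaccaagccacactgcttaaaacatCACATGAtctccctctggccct
Ctsd: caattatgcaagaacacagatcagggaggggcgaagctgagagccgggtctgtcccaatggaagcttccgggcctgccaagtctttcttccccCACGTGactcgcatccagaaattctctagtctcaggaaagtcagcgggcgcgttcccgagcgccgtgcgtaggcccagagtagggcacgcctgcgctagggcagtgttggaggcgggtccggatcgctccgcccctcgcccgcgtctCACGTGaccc
Cd68: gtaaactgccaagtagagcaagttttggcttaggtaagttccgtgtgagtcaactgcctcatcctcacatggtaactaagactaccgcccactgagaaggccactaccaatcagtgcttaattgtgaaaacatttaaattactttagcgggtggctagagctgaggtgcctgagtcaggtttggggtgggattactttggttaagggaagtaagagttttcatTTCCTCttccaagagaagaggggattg

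The M-box of Gpnmb began 22 bases before the start site and read on the opposite strand, with 1 PU.1 core at 181 bases. Ctsd held 2 E-boxes, at 10 and 157 bases before the start, and Cd68 held 1 PU.1 core at 27 bases. Of 33469 rat promoters of the same length, 5.59% held the E-box, 3.07% the M-box and 23.3% the PU.1 core. Promoters were found for 6 of the 9 genes. Among the other 3, Csf1r held 2 PU.1 cores and Ctss 1, and Apoe, with 3 start sites, held 1 M-box and 1 PU.1 core at different starts. A match to these letters describes the sequence and does not show that a factor binds there.

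None of the 9 genes passed the test for a difference between diabetic and control lung. Of the 11 probe sets, 10 were bright enough to be tested, and 0 of the 10 had an adjusted p under 0.05 in limma (Benjamini-Hochberg over 9520 probe sets), against 0.168% of all probe sets. At an unadjusted p under 0.05, Ctss, Apoe and Csf1r were higher in diabetic lung and 0 were lower, or 3 of 10 against 16.4% of all probe sets at that threshold in either direction, 7.75% higher and 8.68% lower. The log2 change was above 0 for 8 of the 10 and for 47.2% of all. The median log2 change was 0.29 over the 10 and -0.01 over all probe sets tested. For 0 of the 10 were the groups free of overlap, as they were for 2.04% of all. The 9 genes behaved in 3 ways across the animals. Diabetic animals 1 and 2 held the 2 highest signals for 5 of them. Ctss, Csf1r and Apoe had higher diabetic means with other animals among the 2 highest, and Aif1 had slightly lower diabetic means.

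Gpnmb, which encodes a transmembrane glycoprotein of phagocytes and melanocytes, had the widest spread. Its signal was 2071, 2702, 1998, 2289.7 and 2482 in control animals 1 to 5. In the 7 diabetic animals it ranged from 2068 to 7171 with a median of 2724. Diabetic animals 1 and 2 had 6925 and 7171, 3.00 and 3.11 times the control mean, and the other 5 lay between 2068 and 2888, so that 3 of the 7 were inside the control range. The group means were 2308 ± 291 (SD, n = 5) and 3796 ± 2242 (SD, n = 7), a ratio of 1.64, and Gpnmb was the single gene of the 9 with a ratio of at least 1.5, which 1.26% of all probe sets reached. On the log2 scale the difference was 0.54 (SE 0.29, 95% interval -0.07 to 1.15, adjusted p = 0.362 in limma). Without diabetic animals 1 and 2 it was 0.11 (adjusted p = 0.669 in limma).

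Lgals3 encodes galectin 3, a sugar-binding protein that macrophages release and that gathers on damaged lysosomes. The control signals were 4014.5, 3963, 3580, 3782 and 4059 in animals 1 to 5, and the diabetic signals ran from 2614.5 to 7256 with a median of 3972. Diabetic animals 1 and 2 again stood above all others, at 7256 and 6994, while diabetic animal 5 was the lowest of the 12. The means were 3880 ± 198 (SD, n = 5) and 4585 ± 1801 (SD, n = 7), with a log2 difference of 0.15 (SE 0.20, 95% interval -0.28 to 0.59, adjusted p = 0.752 in limma). Without diabetic animals 1 and 2 the direction turned, to -0.14 (adjusted p = 0.564 in limma).

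Cd68, the gene of a heavily glycosylated late endosomal protein used as a macrophage stain, had control signals of 723, 624, 784, 661 and 642. The diabetic signals ran from 633 to 1376 with a median of 724. Diabetic animals 1 and 2 were at 1376 and 1215.5, 2.00 and 1.77 times the control mean, and the other 5 all lay within the control range. The means were 687 ± 65.9 (SD, n = 5) and 873 ± 295 (SD, n = 7), with a log2 difference of 0.29 (SE 0.17, 95% interval -0.08 to 0.66, adjusted p = 0.425 in limma). Without diabetic animals 1 and 2 it was 0.04 (adjusted p = 0.868 in limma).

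Ctsd encodes cathepsin D, the main aspartic protease of lysosomes. Its control signals were 4441, 4281, 4334.5, 3630.1 and 3755, and its diabetic signals ran from 4015 to 7325.5 with a median of 4353. Diabetic animals 2 and 1 were highest at 7325.5 and 6453, diabetic animal 3 followed at 5383, and the other 4 lay within the control range. The means were 4088 ± 369 (SD, n = 5) and 5135 ± 1304 (SD, n = 7), with a log2 difference of 0.30 (SE 0.14, 95% interval -0.00385 to 0.60, adjusted p = 0.310 in limma). It was 0.11 without diabetic animals 1 and 2 (adjusted p = 0.578 in limma).

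**Figure D1:**
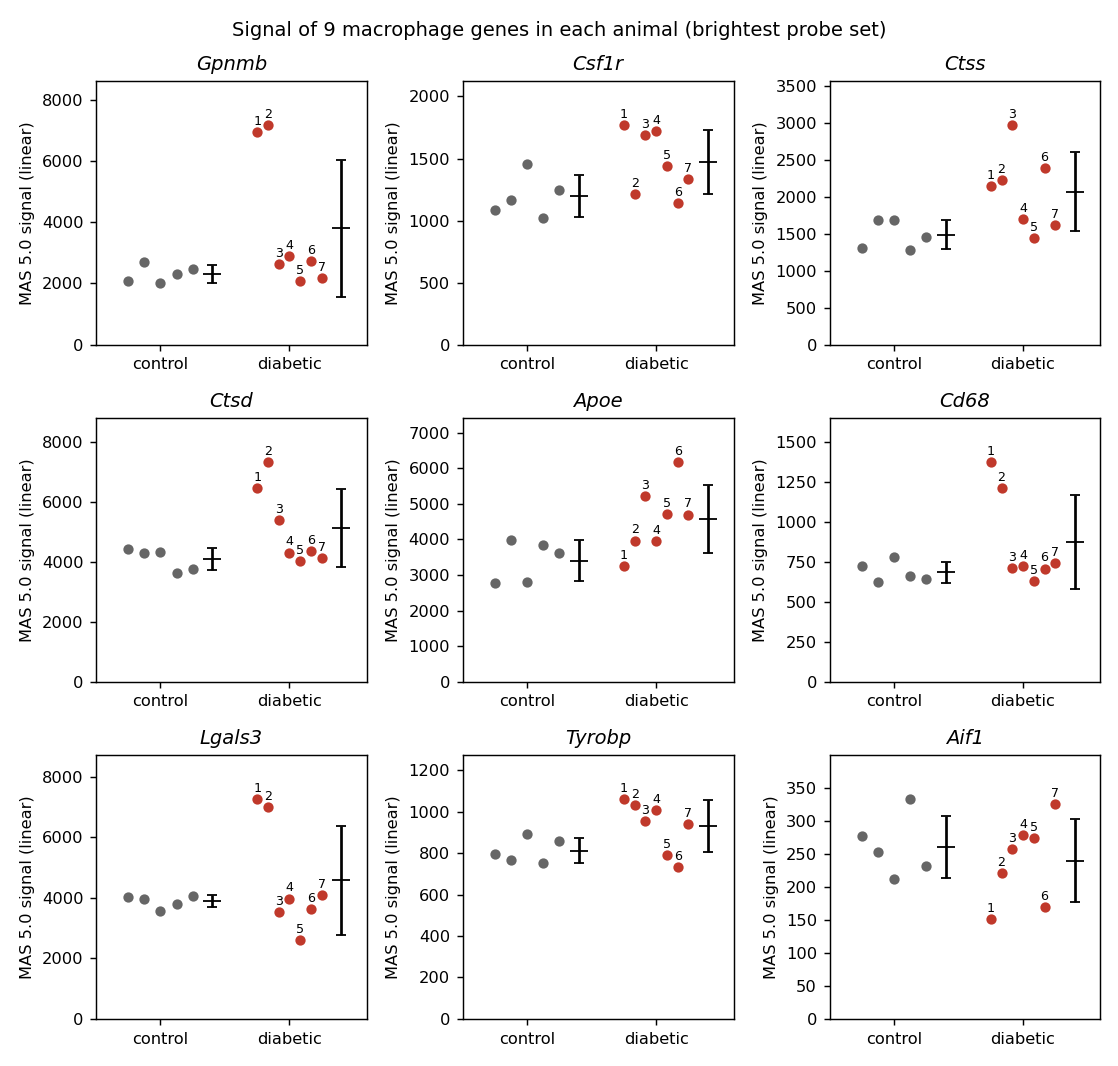
MAS 5.0 signal (linear scale, from 0) of the brightest probe set of each of the 9 genes in 5 control (grey) and 7 diabetic (red, numbered) animals, with mean and SD in black. Diabetic animals 1 and 2 are the highest for Gpnmb, Lgals3, Cd68, Ctsd and Tyrobp, and the groups overlap for all 9 genes.

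Tyrobp, the gene of the adaptor DAP12 that carries signals from TREM2 and related receptors, had the first pattern, with more diabetic animals above the controls. The control signals were 797, 766, 891, 751 and 858, and the diabetic signals ran from 733 to 1060.3 with a median of 956. Diabetic animals 1 and 2 were again the highest, at 1060.3 and 1032, but animals 4, 3 and 7 were also above all controls and diabetic animal 6 was the lowest of the 12. The means were 813 ± 60.3 (SD, n = 5) and 932 ± 124 (SD, n = 7), with a log2 difference of 0.19 (SE 0.10, 95% interval -0.02 to 0.40, adjusted p = 0.350 in limma), and it was 0.12 without diabetic animals 1 and 2 (adjusted p = 0.598 in limma).

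In 5 of the 10 tested probe sets, then, diabetic animals 1 and 2 held the highest 2 of the 12 signals, as they did in 1.86% of all probe sets tested. These animals were singled out after their values were seen, so the share is a description of 2 arrays and carries no test. As whole arrays they lay within the range of their group. Their mean correlation with the remaining diabetic arrays across probe sets was 0.968 and 0.969, where the other 5 arrays had 0.948 to 0.971. The GAPDH control transcript is read by probe sets at both ends, and the 3' over 5' signal ratio rises as RNA degrades. It was 1.11 and 1.13 in these 2 animals and 1.10 to 1.30 in the other 5. With that ratio as a covariate over all 12 arrays, the log2 differences of Lgals3 and Tyrobp turned to -0.0241 and -0.0897. Those of Cd68, Ctsd and Gpnmb were 0.0665, 0.16 and 0.38 (for Gpnmb, adjusted p = 0.716 in limma). The GAPDH ratio also differed between the groups, as given below for Csf1r. With the beta-actin ratio as a covariate, added after seeing the data, Lgals3 and Tyrobp had 0.16 and 0.19. Cd68, Ctsd and Gpnmb had 0.30, 0.31 and 0.55 in that fit.

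The cysteine protease gene Ctss, the macrophage growth factor receptor gene Csf1r and Apoe had the 3 unadjusted p values under 0.05, and their animals ranked differently. Ctss encodes cathepsin S, which trims the invariant chain of MHC class II. Its control signals were 1307, 1678.5, 1688, 1278 and 1460 and its diabetic signals 1440 to 2967 with a median of 2138. Diabetic animals 3, 6, 2, 1 and 4 were above all controls, and animals 5 and 7 were not. The means were 1482 ± 196 (SD, n = 5) and 2068 ± 528 (SD, n = 7), with a log2 difference of 0.45 (SE 0.15, 95% interval 0.12 to 0.78, adjusted p = 0.178 in limma), and it was 0.40 without diabetic animals 1 and 2.

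Csf1r encodes the receptor for the growth factors CSF1 and IL-34, on which the survival of many tissue macrophages depends. Its control signals were 1085, 1163, 1458, 1024 and 1245, and its diabetic signals ran from 1141 to 1770.5 with a median of 1440.5. Diabetic animals 1, 4 and 3 exceeded all controls, and diabetic animal 2, so high for Gpnmb, had 1213, close to the control mean. The means were 1195 ± 169 (SD, n = 5) and 1471 ± 256 (SD, n = 7), with a log2 difference of 0.29 (SE 0.12, 95% interval 0.03 to 0.55, adjusted p = 0.257 in limma). It was 0.29 without diabetic animals 1 and 2 as well (adjusted p = 0.283 in limma). The exact permutation test gave p = 0.0631 for Csf1r, where it gave p = 0.0354 for Ctss, both without adjustment. With the GAPDH ratio as a covariate the difference turned to -0.0621 (adjusted p = 0.879 in limma). That ratio itself was higher in the controls, with a mean of 1.32 ± 0.0778 (SD, n = 5) against 1.15 ± 0.0711 (SD, n = 7) in diabetic animals (two-sided p = 0.00758, exact permutation test), so the covariate overlaps with the group, and its part in the result was not tested. The same ratio of the beta-actin control transcript was 2.06 ± 0.437 (SD, n = 5) in controls and 2.08 ± 0.372 (SD, n = 7) in diabetic animals (two-sided p = 0.886, exact permutation test). With the beta-actin ratio as a covariate, a fit added after seeing the data, the Csf1r difference was 0.30 (adjusted p = 0.240 in limma).

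Apoe, the apolipoprotein by which macrophages export cholesterol, was highest in other animals than Gpnmb. The brighter probe set had 2776.5, 3975, 2819, 3859 and 3614 in control animals 1 to 5, and 3244 to 6175 in diabetic animals with a median of 4698. Diabetic animals 6, 3, 5 and 7 lay above all controls, whereas diabetic animal 1 had the lowest signal of its group and diabetic animals 2 and 4 were just below the highest control. The means were 3409 ± 573 (SD, n = 5) and 4568 ± 960 (SD, n = 7), with a log2 difference of 0.41 (SE 0.14, 95% interval 0.11 to 0.72, adjusted p = 0.183 in limma). It was 0.54 without diabetic animals 1 and 2 (adjusted p = 0.101 in limma). With the GAPDH ratio as a covariate it was 0.84 (adjusted p = 0.0292 in limma), the single value past the threshold for any of the 9 genes in the limma fits that were run. The dimmer probe set of Apoe had signals of 1.5 to 8.90 over the 12 animals, far under the 170 that a probe set needed to be tested, and gives no level.

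Aif1, the gene of the actin-binding protein Iba1 that marks macrophages and microglia, was dim, with group means of 261 ± 46.8 (SD, n = 5) and 239.6 ± 62.5 (SD, n = 7). The brighter of its probe sets had 276, 252, 211, 333 and 231.5 in control animals and 151 to 325 in diabetic animals with a median of 257.5. Diabetic animals 1 and 6 were the lowest of the 12, and no diabetic animal exceeded the highest control. The log2 difference was -0.15 (SE 0.18, 95% interval -0.54 to 0.24, adjusted p = 0.724 in limma). The other probe set, whose name marks probes that can match several transcripts, had -0.16 (SE 0.22, adjusted p = 0.761 in limma), and -0.60 with the GAPDH ratio as a covariate (adjusted p = 0.340 in limma). Diabetic animal 1 was the highest of the 12 on it, at 338, and lowest on the first, at 151, and over the 12 arrays the correlation of the probe sets was -0.01 once the group means were subtracted, so the level of Aif1 in a single animal was not settled by these arrays.

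**Figure D2:**
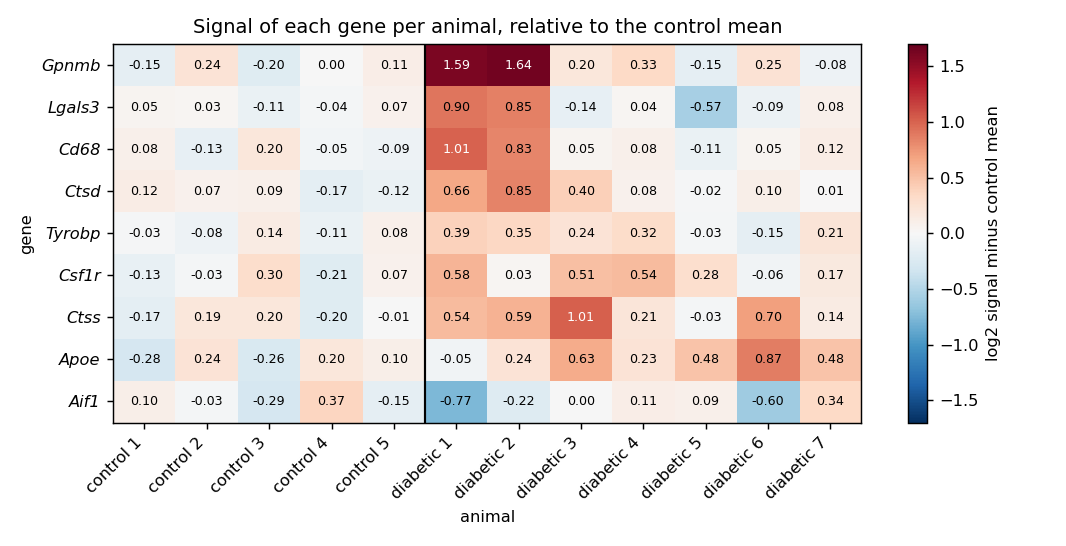
Log2 signal of each gene (rows, brightest probe set) in each of the 12 animals (columns), minus the mean of the 5 control animals. The excess in diabetic animals 1 and 2 is 1.59 and 1.64 for Gpnmb and falls off toward Tyrobp, while Apoe is highest in diabetic animal 6, at 0.87.

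**Figure D3:**
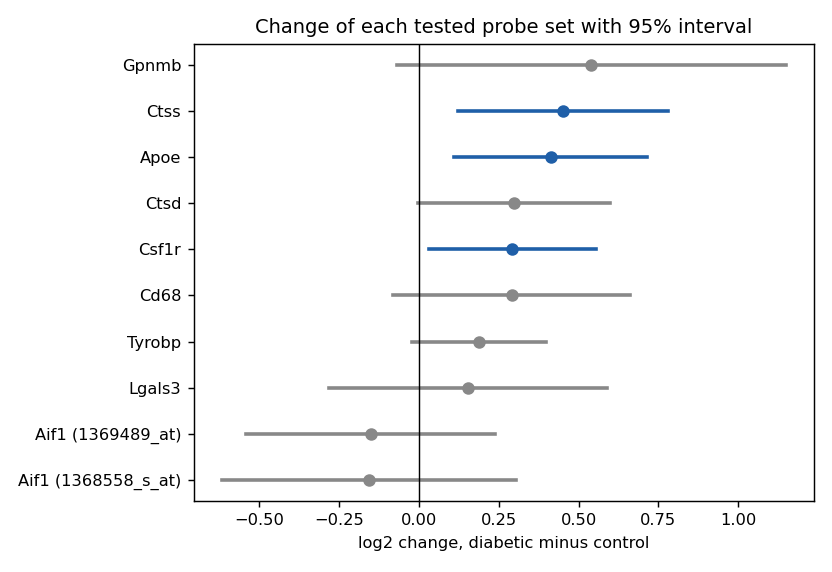
Log2 difference, diabetic minus control, of the 10 tested probe sets, with 95% intervals from limma. Blue marks Ctss, Apoe and Csf1r, whose intervals lie above 0 before adjustment for the 9520 probe sets tested. The interval of Gpnmb is the widest, from -0.07 to 1.15.

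Counted by animal, diabetic animal 1 exceeded the highest control for 7 of the 9 genes, diabetic animal 2 for 6, animal 3 for 5, animal 4 for 4, animals 6 and 7 for 3 each and animal 5 for 1. Diabetic animal 6 lay below the lowest control for 2 genes, animals 1, 3 and 5 for 1 each and animals 2, 4 and 7 for 0. The matching shares over all probe sets are not given here, so these counts cannot be judged against them. The mean log2 signal over the 9 genes relative to the control mean ran from -0.04 to 0.05 in control animals. In diabetic animals 1 to 7 it was 0.54, 0.57, 0.32, 0.22, -0.01, 0.12 and 0.16. Diabetic animal 5 lay within the control range of this mean, and the other 6 lay above it. These values describe a group of genes chosen with earlier results known and were not tested.

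Whether the change of Gpnmb differed from that of the other genes was tested on the log2 ratio within each array. The difference in change was largest against Aif1, at 0.69 (adjusted p = 0.541), and 0.39 against Lgals3 (adjusted p = 0.222, exact permutation tests over all splits of the animals, two-sided, adjusted over the 8 comparisons). Against Tyrobp, Cd68, Csf1r, Ctsd, Apoe and Ctss it was 0.35, 0.25, 0.25, 0.24, 0.13 and 0.09. None of the 8 differences passed, so Gpnmb was not shown to change more than any other of the 9 genes. Before adjustment the exact permutation p was 0.0278 against Lgals3, and without diabetic animal 7 that difference was 0.48 (adjusted p = 0.0346, exact permutation test). Leaving out any other single animal gave adjusted p values of 0.194 to 0.533 by the same test, so that removal alone passed.

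Correlations between the 9 genes over the 7 diabetic animals were computed for all 36 pairs. By Pearson's r, 1 of the 36 passed after adjustment over the 36, Cd68 with Lgals3 (exact permutation p = 0.000397, adjusted p = 0.0143, n = 7), and by Spearman's rho 0 passed, that pair having rho = 0.96 (exact permutation p = 0.00278, adjusted p = 0.10). For Gpnmb, Lgals3, Cd68 and Ctsd animals 1 and 2 formed a cluster of their own, so no r over all 7 is given for pairs among them. Over the other 5 animals r was 0.99 for Cd68 with Lgals3 and 0.17 to 0.52 for the remaining pairs of these 4 genes, too few animals for a test of their own. Over the 5 control animals, also too few for a test, r was -0.66 for Cd68 with Lgals3. It was -0.95 to 0.57 for the remaining pairs of these 4 genes in controls. Apoe and Tyrobp ran in opposite directions without passing, with Pearson's r = -0.82 (exact permutation p = 0.0210, adjusted p = 0.146, n = 7) and Spearman's rho = -0.86 (exact permutation p = 0.0238, adjusted p = 0.214). Without the 2 animals farthest from the median of Apoe, r was -0.52. Csf1r and Ctss, although both higher on average, had r = 0.01 (exact permutation p = 0.979, n = 7) and rho = -0.18 (exact permutation p = 0.713).

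The genes whose profile over the 12 arrays was most like that of Gpnmb, after the group means were subtracted, were Lgals3 (r = 0.93), the lysosomal membrane gene Cd63 (0.92), the cysteine protease gene Ctsb (0.91), Lcn2, whose product lipocalin 2 captures bacterial siderophores (0.90), and the lysosomal ribonuclease gene Rnaset2 (0.90). Of the 9 genes, Cd68 was in place 10, at 0.88, and Ctsd in place 15, at 0.85. Without diabetic animals 1 and 2 the r of Cd68 was -0.31 and that of Ctsd 0.15. Each of the 5 nearest genes had its highest signals in diabetic animals 1 and 2. The signal of Lcn2 was 9121 and 9757 there and at most 3749 in the other 10 animals, and that of Cd63 was 5590 and 5763 against at most 4875. Without those animals the same r was 0.48 for Lgals3, 0.61 for Cd63, 0.14 for Ctsb, 0.53 for Lcn2 and 0.55 for Rnaset2. The likeness of these 5 was thus weaker without the 2 animals, most so for Ctsb. The 5 were picked by likeness to Gpnmb, whose largest deviations from its group mean, 1.05 and 1.10, were in these animals. Their peaks there and the weaker r without the 2 animals were therefore largely set by the selection. None of the 5 passed the test between the groups, with adjusted p values in limma from 0.656 for Cd63 to 0.961 for Ctsb.

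The genes nearest to Csf1r were Dpy19l1, a C-mannosyltransferase gene (r = 0.89), Ly86, which encodes a partner of the toll-like receptor relative RP105 (0.89), Serping1, the inhibitor of complement C1 (0.88), Irf8, a transcription factor of monocytes and dendritic cells (0.85), and Chsy1, a chondroitin synthase gene (0.84). Without diabetic animals 1 and 2 these were 0.91, 0.88, 0.85, 0.82 and 0.81. The r of Gpnmb with Csf1r was 0.03, and that of Tyrobp with Csf1r was 0.62. Irf8 had a signal of 588 in diabetic animal 1 and 365 in diabetic animal 2, the same order as Csf1r.

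**Figure D4:**
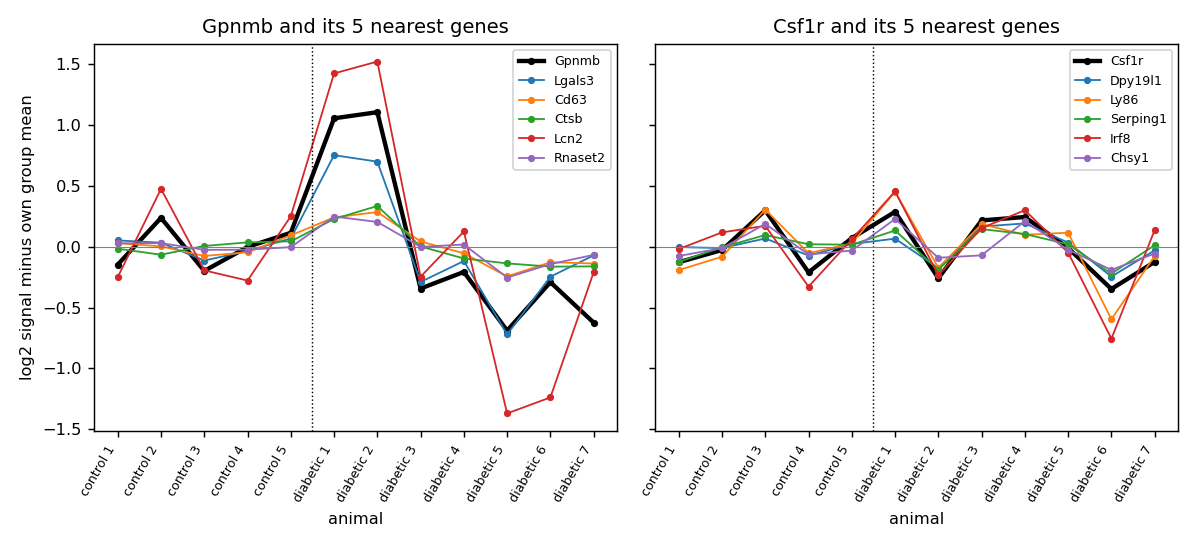
Log2 signal minus the mean of the animal's own group, for Gpnmb (left, black) and Csf1r (right, black) and the 5 genes most like each, across the 12 animals. The Gpnmb set peaks in diabetic animals 1 and 2, and the Csf1r set dips in diabetic animals 2 and 6.

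The wider lysosomal system had part of the 2-animal pattern. Of 28 other genes of lysosomal proteins tested, 0 passed in limma over all probe sets. At an unadjusted p under 0.05, 4 were higher and 1 was lower, where 7.75% and 8.68% of all probe sets were, and the median log2 change was 0.05. The 4 higher were Ctsc, a protease that activates granule enzymes (0.37, adjusted p = 0.0729), Lamp2, a lysosomal membrane protein (0.32, adjusted p = 0.0895), Cst3, a secreted cathepsin inhibitor (0.26, adjusted p = 0.178) and Ctsz (0.22, adjusted p = 0.304). Lamp1, the close relative of Lamp2, was the one lower, at -0.18 (adjusted p = 0.218). In 8 of the 28 genes, against 1.86% of all probe sets tested, diabetic animals 1 and 2 had the 2 highest signals. These genes were Ctsa, Ctsb, Ctsz, Lgmn, Hexa, Cd63, Npc2 and Cstb. The protease gene Lgmn, for example, had 2593 and 2572 in these animals and at most 2141 in the other 10. The summed signal of 29 lysosomal genes spanned 66232 to 67499 over the controls and 63544 to 78428 over the diabetic animals (two-sided p = 0.136, exact permutation test, adjusted p = 0.443 over 13 lists), with 76609 and 78428 in diabetic animals 1 and 2.

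Lipid handling genes included members of both patterns. Of 14 tested, 0 passed in limma and 2 were higher at an unadjusted p under 0.05, a level that 7.75% of all probe sets reached in that direction and 16.4% in either, the cholesterol exporter gene Abcg1 (log2 change 0.39, adjusted p = 0.116) and the lipase gene Lpl (0.47, adjusted p = 0.255). The median was 0.08. The 2 highest signals were again in diabetic animals 1 and 2 for 3 of the 14, against 1.86% of all probe sets. These were the lipid droplet gene Plin2, the fatty acid carrier gene Fabp5 and the osteopontin gene Spp1. The signal of Fabp5 was 3231 and 3601 in these animals and at most 2163 in the others, and that of Spp1, a dim probe set, was 726 and 375 against at most 296.

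General macrophage markers had a median change near 0. Of 17 other markers tested, 0 passed in limma, 3 were higher (Cd14, a lipopolysaccharide receptor, at 0.61 with adjusted p = 0.123, Lyve1, a hyaluronan receptor, at 0.36 with adjusted p = 0.251, and the pore-forming protein gene Mpeg1, at 0.23 with adjusted p = 0.257) and 1 lower (Cd4, at -0.31 with adjusted p = 0.288) at an unadjusted p under 0.05, against 7.75% and 8.68% of all probe sets. The median log2 change was -0.00929. The complement genes C1qa, C1qb and C1qc had changes of 0.04, -0.02 and -0.01, and Laptm5 was the single gene of the 17 with its highest signals in diabetic animals 1 and 2. The summed signal of 19 markers averaged 41436 ± 4169 (SD, n = 5) over the controls and 41223 ± 1905 (SD, n = 7) over the diabetic animals (p = 0.965, exact permutation test). That sum is dominated by the lysozyme gene Lyz2, at 26340 ± 4191 and 24767 ± 2861, which type II alveolar cells also express. The array's annotation held 19 of the 33 markers listed, and Marco, Mrc1, Itgax and Adgre1 are among those not named by it.

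Of 14 genes of colony stimulating factors, their signalling and myeloid transcription factors, 0 passed in limma. The hematopoietic factor gene Runx1 (0.48, adjusted p = 0.124) and Maf (0.28, adjusted p = 0.199) were higher and 0 genes lower at an unadjusted p under 0.05, which 16.4% of all probe sets reached in either direction, and the median was 0.02. Csf1, a ligand of the Csf1r receptor, had 370.2 ± 69.8 (SD, n = 5) and 379 ± 73.4 (SD, n = 7). Of the MiT factors that drive lysosomal genes, Mitf, Tfeb and Tfe3 had changes of 0.14, -0.18 and -0.02, and Tfec was too dim to be tested.

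**Figure D5:**
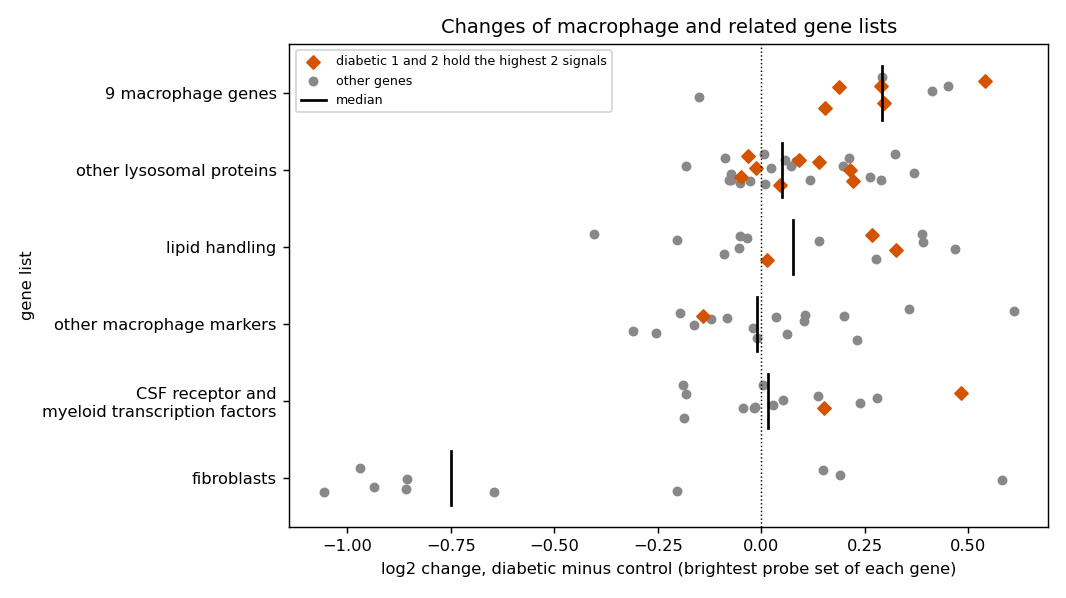
Log2 difference, diabetic minus control, of each tested gene (points, brightest probe set) in 6 gene lists, with the list median as a black bar. Orange diamonds mark genes whose 2 highest signals are in diabetic animals 1 and 2. They are 5 of the 9 macrophage genes, 8 of 28 other lysosomal genes and 3 of 14 lipid handling genes. They are also 2 of 14 CSF receptor and myeloid factor genes, 1 of 17 other macrophage markers and 0 of 10 fibroblast genes. Over all probe sets the share is 1.86%.

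Markers of other cell types were measured beside these genes. The summed signal of 10 fibroblast markers spanned 30566 to 31759 over the controls and 14870.5 to 26823 over the diabetic animals, with no overlap (two-sided p = 0.00253, exact permutation test, the smallest p these groups can give, adjusted p = 0.0328 over 13 lists). In diabetic animals 1 and 2 it was 26170 and 21592. It was the single list of the 13 whose sum passed. Most of the gap lay in Col3a1, a fibrillar collagen gene, with means of 8739 ± 391.6 (SD, n = 5) and 4809 ± 1648 (SD, n = 7), and the microfibril gene Mfap4, with 8714 ± 666 and 5348 ± 2306. Of the 10 genes 0 passed in limma. At an unadjusted p under 0.05, where 8.68% of all probe sets were lower and 7.75% higher, 7 were lower and 1 was higher. The higher one, the growth factor receptor gene Pdgfra, had the smallest p of the list (log2 change 0.58, adjusted p = 0.0552), ahead of Fbln1 (-0.86, adjusted p = 0.0729) and Col1a1 (-1.06, adjusted p = 0.0760), and Dcn and Tcf21 had 0.19 and 0.15, so the list did not move one way. The sum's part in the values of the macrophage genes was not tested. The sums of the other 12 lists had adjusted p values of 0.416 or more by the same test. Neutrophil markers summed to between 2442 and 4250 in the controls and between 2256 and 6560 in diabetic animals, with 4225 and 3355 in diabetic animals 1 and 2, and 3 of these 5 markers were too dim to be tested. T and NK cell markers were lowest in diabetic animal 6, at 1727, where the other diabetic animals had 3166 or more. Diabetic animals 1 and 2 held the 2 highest signals for 1 of 8 tested type II genes and 1 of 8 T and NK genes. In the other cell type lists they did so for 0 genes, and over all probe sets for 1.86%.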

How the data were processed

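Lung RNA of 12 rats was measured on Affymetrix RAE 230A arrays. The authors computed 1 intensity per probe set with MAS 5.0 and scaled each array, and the mean without the lowest and highest 2% is 500.1 on all 12. The deposited values are linear, 1 at or below 0 was set to 0.1, and all were transformed to log2. The deposited intensities carry no depth, and the number of arrays limits the precision. The 57 control probe sets and the dimmest 40% of the others by mean log2 over all arrays (below a signal of 170.0) were dropped. Groups were compared over the remaining 9520 with limma 3.58.1 in R 4.3.3 (lmFit, then eBayes with an intensity trend), two-sided, with Benjamini-Hochberg adjustment, in place of the BAMarray test of the methods. Probe sets were named through RefSeq (GRCr8) by Entrez ID for 12748, by accession for 3 and by the annotation's symbol for 32, and 312 with several genes and 2771 with no gene remained unnamed but were fitted.

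The member genes, the gene lists and the rule for named genes (all 9, up to 4 genes of smallest p per list, and the 5 genes most like Gpnmb and Csf1r) were chosen with earlier results of these data known. Genes named for their signals in diabetic animals 1 and 2 fall outside that rule and were chosen after their values were seen. The same holds for Ctsz, Mfap4, Dcn, Tcf21, Lyz2, Csf1, the complement genes and the MiT factors. Exact permutation tests over every split of the animals were two-sided by doubling the smaller tail (python 3.11.15, scipy 1.17.1). The fit was tested on simulated data. Alternatives covered normalization, a pseudocount of 22.3, other filters and variance models, array weights, a replicate block, RNA quality and leaving out animals. Other cell types were type I and type II alveolar cells, endothelium, fibroblasts and neutrophils, with T and NK, B, mast and red blood cells. Of these, fibroblast genes alone are named, and the rest are given through their sums and counts.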

Additional observations from a re-analysis of the deposited data

Results flagged for a closer look

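In 4 of 48 groups of animals tested, 1 animal stood far from the others of its group, and chance gives about 1 in 20. The dim probe set of Apoe had 8.30 in control animal 5, with the next at 3.70, and 8.90 in diabetic animal 6, with the next at 4.00, all far below the level needed for testing. The summed signal of T and NK cell markers was 3937.5 in control animal 3, with the next at 3413, and 1727 in diabetic animal 6, with the next at 3166. A pair of animals that stand apart together, as diabetic animals 1 and 2 did for Gpnmb, would not be found in this way.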

How the results depend on the processing

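Over 262 recomputed values of the 10 tested probe sets, all but 9 kept direction and side of the threshold. The exact permutation test was judged by its unadjusted p, unlike the limma fits, and this alone put its values for Ctss and Apoe among the 9. With the GAPDH ratio as a covariate the changes of Csf1r, Lgals3 and Tyrobp turned to -0.0621, -0.0241 and -0.0897. Those of Cd68, Ctsd and the second probe set of Aif1 moved to 0.0665, 0.16 and -0.60. Those of Gpnmb and Ctss were 0.38 and 0.59. With this covariate Apoe passed at 0.84, and the counts past an adjusted p of 0.05 were 1 of the 10 and 288 over all probe sets. With the beta-actin ratio in its place, Csf1r, Lgals3 and Tyrobp had 0.30, 0.16 and 0.19, and 0 of the 10 passed. The exact permutation test, without adjustment over probe sets, gave p = 0.0354 for Ctss (0.45) and p = 0.0379 for Apoe (0.41), and p = 0.0631 for Csf1r, whose unadjusted limma p was 0.0309. Array weights moved the probe sets of Aif1 to -0.0306 and -0.0600. Averaging its probe sets, the dimmer of which was far under the filter and gives no level, moved Apoe to 0.07. Without diabetic animals 1 and 2, chosen after seeing the data, Lgals3 was -0.14, 0 probe sets passed in limma, and the differences in change of Gpnmb with Csf1r, Ctss, Ctsd, Apoe and Tyrobp turned to -0.18, -0.30, -0.00489, -0.43 and -0.00892. Same-numbered animals share only a number (correlations of deviations -0.12 to 0.04). With the replicate block, which by construction drops diabetic animals 6 and 7, and without those animals, the second probe set of Aif1 turned to 0.0863, and with the block 11 probe sets passed. The count of 16 over all probe sets was 25 with quantile normalization, 7 without a filter, 9 without the trend, 80 with array weights, 27 with the beta-actin ratio (added after seeing the data), and 2 to 30 leaving out 1 animal. Leaving out 1 animal, 0 of the 10 probe sets passed, Gpnmb ran from 0.36 to 0.66, Lgals3 from 0.0285 to 0.27, Cd68 from 0.17 to 0.36, Aif1 from -0.23 to -0.0479 and its second probe set from -0.25 to -0.0211, and the differences in change of Gpnmb ran from -0.0717 to 0.24 with Ctss, -0.13 to 0.25 with Apoe, 0.0208 to 0.36 with Csf1r, 0.13 to 0.32 with Ctsd, 0.15 to 0.34 with Cd68, 0.19 to 0.46 with Tyrobp, 0.41 to 0.88 with Aif1 and 0.32 to 0.48 with Lgals3. The causes were not tested.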
